A study of Caenorhabditis elegans with 2 samples.

Results

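Binding of LIN-39 in L4 larvae of *Caenorhabditis elegans* was examined at 10 genes of Wnt signalling and of the migration of the Q neuroblasts: *mom-1*, *mig-14*, *egl-20*, *lin-17*, *mig-1*, *mig-5*, *dsh-2*, *pry-1*, *bar-1* and *mig-13*. They are 10 of the 19973 protein-coding genes on the nuclear chromosomes. They were chosen with the deposited peaks in view, and the values that chose them are given as a description. The study profiled the Hox protein LIN-39 by chromatin immunoprecipitation and sequencing (ChIP-seq) in 2 biological replicates of 1 group, with no second genotype, stage or treatment. Whole L4 animals of both sexes were pooled. They belonged to OP18, a strain with the allele unc-119(ed3) on III and the transgene wgIs18, and the protein precipitated was LIN-39 carrying an eGFP tag. Both replicates were set against the same control alignment. The labels do not say in which cells the fusion protein was made, and signal from different cells of the whole animal cannot be told apart.

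Wnt proteins are secreted lipid-modified signals. Acting through Frizzled receptors and Dishevelled proteins, they release beta-catenin from a destruction complex built on Axin, so that it can enter the nucleus and act on genes. In the worm this pathway steers the Q neuroblasts, a left and right pair that migrates and divides in the first larval stage, and whose descendants travel in opposite directions along the body. The Wnt EGL-20 turns on the Hox gene *mab-5* on the left through the beta-catenin BAR-1, and LIN-39 acts in the lineage on the right, which moves forward. In the vulval precursor cells the same pathway helps to keep *lin-39* itself expressed. The migrations are over long before the L4 stage that was profiled.

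For each gene, regions were taken whose summit lay between 5000 bp upstream of its 5' end and its 3' end. There were 30000 regions in the pooled list and in that of each replicate. The 163 highest of the pooled list made up a shorter list that the authors had thresholded. The signal was not taken as comparable between lists. Each value is therefore given as a rank in its list (1 is the highest) and as a relative signal, the ratio to the median of the same list. The pooled relative signal at the threshold was 2.34 on either side, at rank 163 inside and rank 164 outside. Replicate values are those of the region with the nearest summit, at most 200 bp away. No read counts were given, so the depth is unknown.

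The 201 bp centred on 4 pooled summits are shown, read from the RefSeq assembly WBcel235 (ce11) on the strand of the gene. The first 3 are the thresholded peaks among the 10 genes. The fourth, upstream of *bar-1*, is the region in which the replicates differed most in rank, among pooled regions of the 10 genes found in both. Capitals mark the Hox-PBC composite site, bound by Hox proteins with their Pbx-class partner, the homeodomain core, and the MEIS site TGACAG. The core was taken as TAATTA or as TAATTG, with TAATGA and then TAATGG as its other forms. GAGAGA was searched as well, and all patterns were searched on both strands.
mom-1, last intron, chrX:6296408-6296608, plus strand: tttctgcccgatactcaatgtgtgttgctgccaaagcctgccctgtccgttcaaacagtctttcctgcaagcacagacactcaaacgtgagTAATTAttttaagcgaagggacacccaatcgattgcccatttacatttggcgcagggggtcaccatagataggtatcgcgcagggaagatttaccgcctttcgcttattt
mig-5, upstream, chrII:8185069-8185269, minus strand: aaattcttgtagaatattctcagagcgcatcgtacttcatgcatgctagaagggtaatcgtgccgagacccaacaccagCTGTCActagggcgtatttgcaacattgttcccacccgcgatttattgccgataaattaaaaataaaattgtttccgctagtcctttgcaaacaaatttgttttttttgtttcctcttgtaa
mig-13, upstream, chrX:4802417-4802617, minus strand: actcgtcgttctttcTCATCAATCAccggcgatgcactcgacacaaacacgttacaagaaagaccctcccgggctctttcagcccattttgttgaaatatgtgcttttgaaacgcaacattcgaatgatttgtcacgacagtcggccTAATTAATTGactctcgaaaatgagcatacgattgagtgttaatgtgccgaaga
bar-1, upstream, chrX:7175332-7175532, minus strand: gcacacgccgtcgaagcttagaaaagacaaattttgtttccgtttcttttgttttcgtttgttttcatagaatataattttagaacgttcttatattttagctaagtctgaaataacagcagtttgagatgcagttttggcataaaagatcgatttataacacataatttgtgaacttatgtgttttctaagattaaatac

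Of the 10 genes, 3 had a thresholded peak in the window, against 1.39% of all protein-coding genes. Nothing is read from that count, since the peaks chose the genes. They were *mom-1*, *mig-5* and *mig-13*. The windows together held 34 pooled regions, or 3.18 per 10 kb, against 2.93 per 10 kb over the windows of all protein-coding genes. Windows of the 10 genes had a median length of 9908 bp and those of all genes 7027 bp, and a longer window holds more regions. Of the 34 regions, 20 lay above the list median and 14 below it, and the 31 that were not thresholded peaks had a median relative signal of 1.01. Those 31 regions lay on both sides of the list median, from 0.805 at a *mig-1* region, rank 28143, to 1.87 at a *bar-1* region, rank 477. For 25 of the 34 regions the nearest protein-coding 5' end was that of the gene itself.

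**Figure D1:**
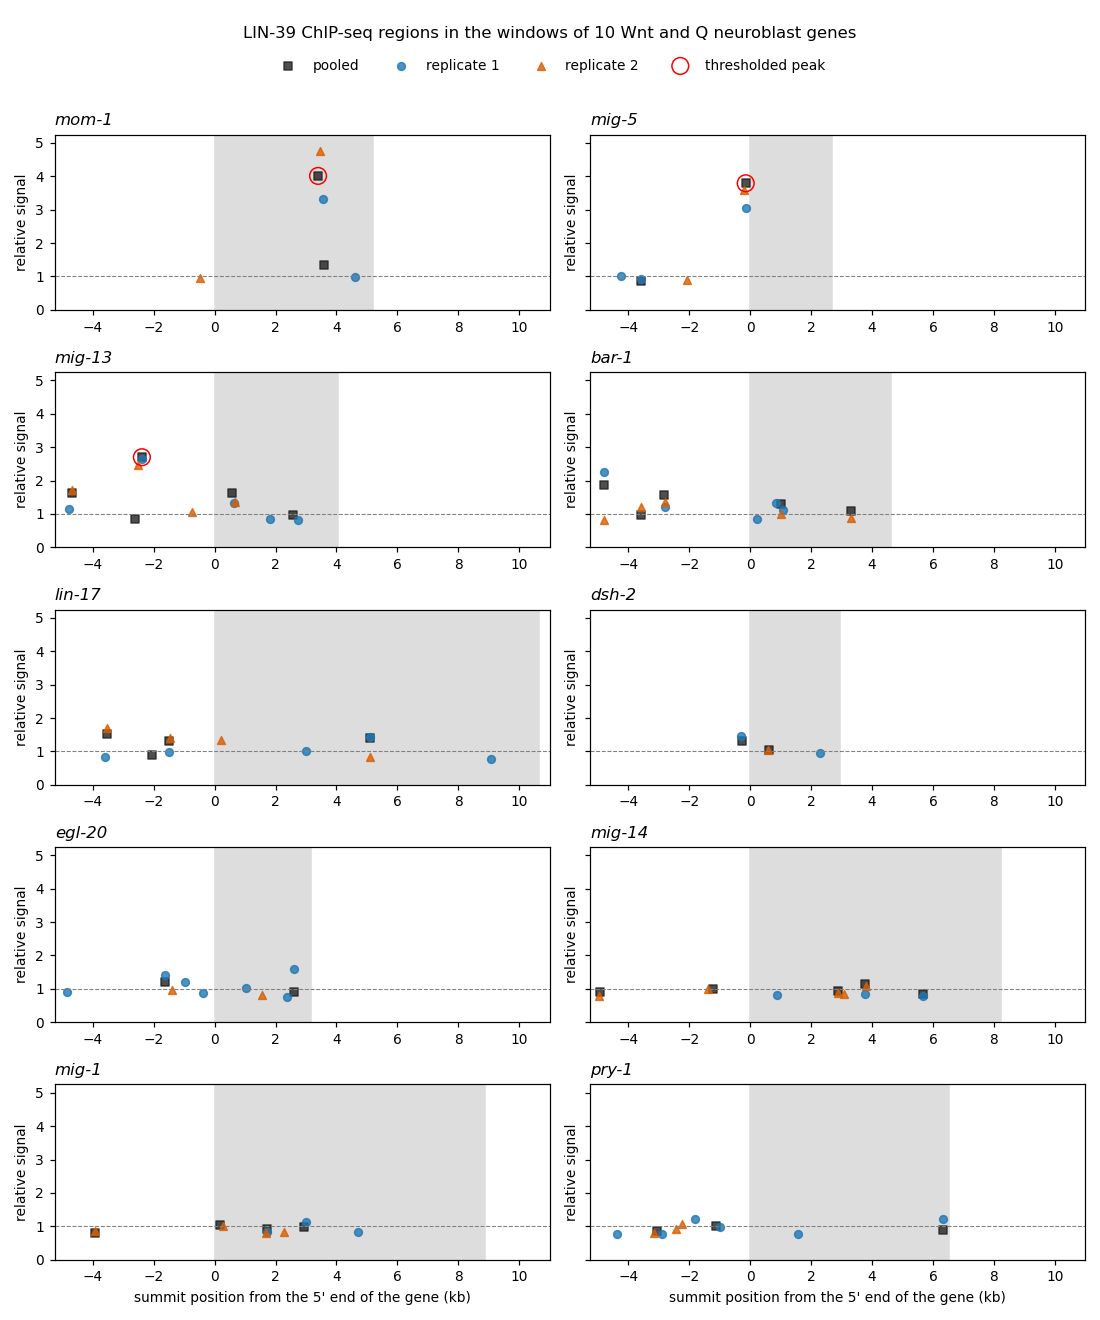
Relative signal (ratio to the median of each list) of every region in the windows of the 10 genes against the position of its summit from the 5' end of the gene in kb, for the pooled list and the 2 replicates. Grey marks the gene, the dashed line the list median and red circles the 3 thresholded peaks, which lie inside *mom-1*, just upstream of *mig-5* and 2389 bp upstream of *mig-13*.

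Of the genes that make a Wnt signal ready for release, *mom-1* had a thresholded peak and *mig-14* had none. *mom-1* encodes Porcupine, the enzyme that attaches the lipid to Wnt proteins. It lies on X from 6293112 to 6298305 on the plus strand. Its peak had the highest relative signal of the 10 genes, 4.01 in the pooled list at rank 25. It was 3.31 at rank 27 in replicate 1 and 4.75 at rank 19 in replicate 2, a mean of 4.03 ± 1.02 (SD, n = 2). The peak spanned chrX:6296336-6296679, with its summit 3396 bp inside the gene. It lay in intron 7, the last of the gene's transcript of 8 exons, 15 bp past the preceding exon in an intron of 1299 bp. A pooled region at rank 3946, with a relative signal of 1.35, overlapped it, its summit 221 bp past the same exon. The replicate summits were 101 bp apart and fell between those of both pooled regions, so the same replicate regions belong to both. The peak was also in the windows of *cest-16*, a carboxylesterase gene 3434 bp away, and *lev-9*, which acts in clustering of acetylcholine receptors, 4776 bp away. The pooled summit was nearer to the 5' end of *mom-1* than to that of *cest-16*. In both replicates *cest-16* was nearer, at 3272 bp in replicate 1 and 3373 bp in replicate 2, against 3558 bp and 3457 bp for *mom-1*. The distance does not tell which gene the peak belongs to. The printed sequence holds 1 homeodomain core, which starts 9 bp before the summit.

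*mig-14* encodes Wntless, the carrier that takes Wnt proteins to the cell surface. It lies on II from 13741738 to 13749983. Its 5 pooled regions had relative signals from 0.840 to 1.15. The highest, at rank 8843, lay in intron 5, and was 0.852 in replicate 1 and 1.09 in replicate 2, a mean of 0.972 ± 0.170 (SD, n = 2). The ranks were 23441 in replicate 1 and 11147 in replicate 2, below the list median in the one and above it in the other. The region lay at the same place in both replicates, with summits 36 bp apart.

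The Wnt ligand gene *egl-20* had no region high in both replicates. EGL-20 is made by cells in the tail and sets the direction of migration of the Q neuroblasts. The gene lies on IV from 9812357 to 9815532. Replicate 1 listed 7 regions in its window and replicate 2 listed 2. The highest pooled region, 1635 bp upstream, ranked 7458 with a relative signal of 1.19. It ranked 3494 in replicate 1, with a relative signal of 1.42, and had no region within 200 bp in replicate 2. In replicate 1 the highest region of the window lay elsewhere, in the 3' UTR, at rank 1715 and a relative signal of 1.61, and it ranked 21340 in the pooled list. It too had no region within 200 bp in replicate 2, where the highest region of the window ranked 16944.

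The Frizzled receptor genes *lin-17* and *mig-1*, whose products bind Wnt proteins at the cell surface, lie on I. *lin-17*, from 2706883 to 2717549, had 4 pooled regions. The highest ranked 1800, 3546 bp upstream, and its relative signal was 0.818 in replicate 1 and 1.71 in replicate 2, a mean of 1.26 ± 0.628 (SD, n = 2). A region in an intron, 5110 bp inside the gene, went the other way, with 1.43 in replicate 1 and 0.818 in replicate 2. Each replicate thus put a different place of *lin-17* first. The upstream region lay over the non-coding RNA gene *Y71F9B.21*, and its nearest protein-coding 5' end was that of *F32B5.1*, 2917 bp away. *mig-1*, from 948569 to 957456, had 4 pooled regions between 0.805 and 1.04, and the highest, at rank 13157, lay in a coding exon. Replicate 1 had no region within 200 bp of it.

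Of the Dishevelled genes, which relay the signal from Frizzled, *mig-5* had a thresholded peak and *dsh-2* had none. *mig-5* lies on II from 8182323 to 8185023 on the minus strand. Its peak spanned chrII:8184997-8185340, with the summit 146 bp upstream of the 5' end. Its relative signal was 3.79 in the pooled list at rank 28, 3.05 at rank 38 in replicate 1 and 3.59 at rank 37 in replicate 2, a mean of 3.32 ± 0.375 (SD, n = 2). The replicate summits were 70 bp apart. The peak lay between divergent genes, since the 5' end of *cct-1*, which encodes a subunit of the cytosolic chaperonin, was 274 bp from the summit on the other side. Here too the distance does not assign the peak. It was also in the window of *T05C12.4*, whose 5' end was 4788 bp away. The printed sequence holds 1 MEIS site, read on the other strand, 21 bp upstream of the summit, and neither a homeodomain core nor a composite site. The other pooled region of the window, 3581 bp upstream and inside the gene *T05C12.8*, had a relative signal of 0.856 at rank 24074, and 0.917 in replicate 1. *dsh-2*, on II from 5078233 to 5081174, had its highest pooled region 264 bp upstream, at a similar place but with a relative signal of 1.30 at rank 4900. It was 1.46 at rank 2990 in replicate 1 and had no region within 200 bp in replicate 2.

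*pry-1* encodes Axin, the scaffold of the complex that destroys beta-catenin, and lies on I from 14172828 to 14179360. Its highest pooled region was the lowest among the 10 genes in the pooled list, though not in either replicate. This region, 1117 bp upstream, had a relative signal of 1.01 at rank 14640, and 0.984 in replicate 1, and replicate 2 had no region within 200 bp of it. The highest region of the window lay elsewhere in each replicate, with 1.23 at rank 6854 in replicate 1 and 1.08 at rank 11441 in replicate 2, their summits 445 bp apart. *pry-1* had 3 pooled regions, all between 0.864 and 1.01.

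*bar-1*, the beta-catenin gene of the Q neuroblast and vulval pathway, had the largest difference in rank between replicates, among pooled regions found in both. It lies on X from 7166005 to 7170625 on the minus strand. The region 4807 bp upstream, near the edge of the window, ranked 477 in the pooled list with a relative signal of 1.87. It ranked 165 with 2.25 in replicate 1 and 26635 with 0.807 in replicate 2, a mean of 1.53 ± 1.02 (SD, n = 2). The summits were 7 bp apart, so the place was the same and the height was not. Of the 2 replicates only replicate 1 ranked the region high, and what set its pooled rank was not tested. The nearest protein-coding 5' end was that of *F43E12.1*, 2209 bp away. The printed sequence holds none of the 4 patterns and has a GC content of 29.9%. A region 2820 bp upstream was more even, at 1.22 in replicate 1 and 1.36 in replicate 2, a mean of 1.29 ± 0.104 (SD, n = 2), and ranked 1517 in the pooled list. A region in intron 4 had 1.12 in replicate 1 and 1.01 in replicate 2.

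*mig-13* encodes a transmembrane protein that promotes forward migration of the descendants of the right Q neuroblast, and earlier genetic work placed it under positive control of *lin-39*. It lies on X from 4796087 to 4800128 on the minus strand. Its peak spanned chrX:4802345-4802688, with the summit 2389 bp upstream of the 5' end. Its relative signal was 2.70 in the pooled list at rank 91, 2.66 at rank 79 in replicate 1 and 2.47 at rank 145 in replicate 2, a mean of 2.56 ± 0.138 (SD, n = 2). Among the 3 peaks, the replicates differed least here by this SD and most by rank. Their summits were 142 bp apart, and the region of replicate 2 lay nearer to a second, overlapping pooled region at rank 24969 than to the peak. *mig-13* was the nearest protein-coding gene, and no other protein-coding gene had the peak in its window.

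The printed *mig-13* sequence was the only one of the 3 peak sequences with a Hox-PBC composite site, which is the run of 10 capitals that starts 85 bp upstream of the summit. On the other side of the summit are 2 homeodomain cores that share bases, starting 47 and 51 bp downstream of it. A composite site was present in 3 of the 34 pooled regions of the 10 genes, or 8.82%, against 5.06% of all pooled regions and 7.36% of the thresholded peaks. The other 2 were in a *bar-1* coding exon at rank 11615 and in the *mig-14* window at rank 20132. The summit in the *mig-14* window lay inside another gene, *R06B9.5*, 475 bp from its 5' end. The site was thus present in regions of low rank too. A homeodomain core was present in 12 of the 34, or 35.3%, against 40.5% of all pooled regions and 28.8% of thresholded peaks. GAGAGA was present in 6 of the 34, or 17.6%, against 10.5% of all pooled regions and 36.2% of thresholded peaks, and in none of the 3 peaks. The MEIS site was present in 2 of the 34, or 5.88%, against 6.90% of all pooled regions and 9.82% of thresholded peaks. GC content was 47.8% at the *mom-1* peak, 39.3% at *mig-5* and 43.8% at *mig-13*, where the median was 33.3% for all pooled regions and 42.3% for thresholded peaks. A match is a description of the letters and not of a bound site.

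Besides its peak, *mig-13* had 2 regions that were present in both replicates at moderate height. One lay 4683 bp upstream at pooled rank 1207, with 1.14 in replicate 1 and 1.73 in replicate 2, a mean of 1.43 ± 0.411 (SD, n = 2). The other lay in an intron, 585 bp inside the gene, at pooled rank 1195. It had 1.32 in replicate 1 and 1.35 in replicate 2, a mean of 1.34 ± 0.0183 (SD, n = 2). With 5 pooled regions in 9042 bp, *mig-13* had the densest window of the 10, at 5.53 per 10 kb, followed by *bar-1* at 5.20 per 10 kb. The *mig-13* count includes the peak and the region at rank 24969 that overlaps it, which share their replicate 2 region. Its place before *bar-1* rests on counting both. The lowest density was that of *mom-1*, at 1.96 per 10 kb, although its peak was the highest.

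The replicates put the highest region of the window at the same place, within 200 bp, for 4 of the 10 genes, against 18.0% of the 15753 protein-coding genes with a region in both lists. These were *mom-1*, *mig-5*, *mig-13* and *mig-14*. The first 3 carry thresholded peaks, which the authors selected from these replicates, so their agreement is part of how they were chosen. Among the other 7 genes only *mig-14* had it, with the relative signals of 0.852 in replicate 1 and 1.09 in replicate 2 given above. A region matched between the replicates, by mutually nearest summits, lay in the window of 7 of the 10 genes, against 47.0% of all protein-coding genes, whose windows were shorter. The genes without one were *dsh-2*, *egl-20* and *pry-1*. Of the 34 pooled regions, 15 had a region within 200 bp of the pooled summit in both replicates, or 44.1%, against 30.1% of all pooled regions. This rule does not ask that the replicate summits match each other. By it a *pry-1* region 3051 bp upstream is among the 15, although its replicate summits were 269 bp apart. The 15 include both overlapping *mom-1* regions, which share their replicate regions. The 3 thresholded peaks are among the 15, and their genes are among the 7 with a matched region. Both counts thus hold agreement that the peaks were selected for, and nothing is read from them.

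**Figure D2:**
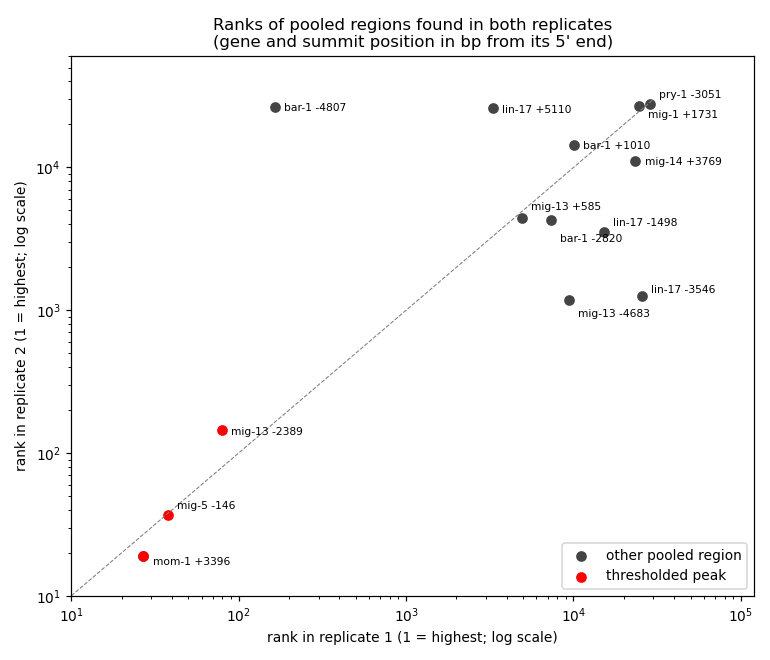
Rank in replicate 2 against rank in replicate 1, both on log scales, for the pooled regions of the 10 genes that had a region within 200 bp in both replicates, each named by gene and summit position in bp from the 5' end. The 3 thresholded peaks lie near the dashed line of equal rank, between ranks 19 and 145, while *bar-1* at -4807 ranked 165 in replicate 1 and 26635 in replicate 2, and both *mom-1* regions share 1 point.

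Ordered by the pooled relative signal of the highest region, the genes ran *mom-1*, *mig-5*, *mig-13*, *bar-1*, *lin-17*, *dsh-2*, *egl-20*, *mig-14*, *mig-1* and *pry-1*. *mom-1* and *mig-5* were neighbours whose replicate values overlapped, at 3.31 and 4.75 against 3.05 and 3.59. *mig-13* lay below both in each replicate. *bar-1*, *lin-17* and *mig-14*, which also had values in both replicates for that region, overlapped one another, and *mig-13* lay above all 3 in each replicate. Set among the 17378 protein-coding genes with a pooled region in the window, the highest region placed *mom-1* at percentile 99.8, *mig-5* at 99.7, *mig-13* at 99.0, *bar-1* at 95.9 and *lin-17* at 85.9. *dsh-2* lay at 66.4, *egl-20* at 53.1, *mig-14* at 46.7, *mig-1* at 31.0 and *pry-1* at 26.2. Longer windows hold more regions, so the highest was also set among genes whose window length differed by at most 10%. There *mig-1* lay at percentile 17.6, *pry-1* at 17.1, *mig-14* at 36.0 and *lin-17* at 76.6, all lower than among all genes. The 3 genes with a thresholded peak lay between 98.6 and 99.8, *bar-1* at 94.0, *dsh-2* at 67.1 and *egl-20* at 52.5. The median relative signal of the highest region was 1.41 for the 10 genes and 1.17 for all genes. Of the 10 genes, 4 had a region among the 1000 highest of the pooled list, *bar-1* besides those with a thresholded peak, against 7.22% of all protein-coding genes. Nothing is read from this median or this count either, since both include the 3 genes with a thresholded peak. The deposited peaks were in view when the 10 genes were chosen.

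**Figure D3:**
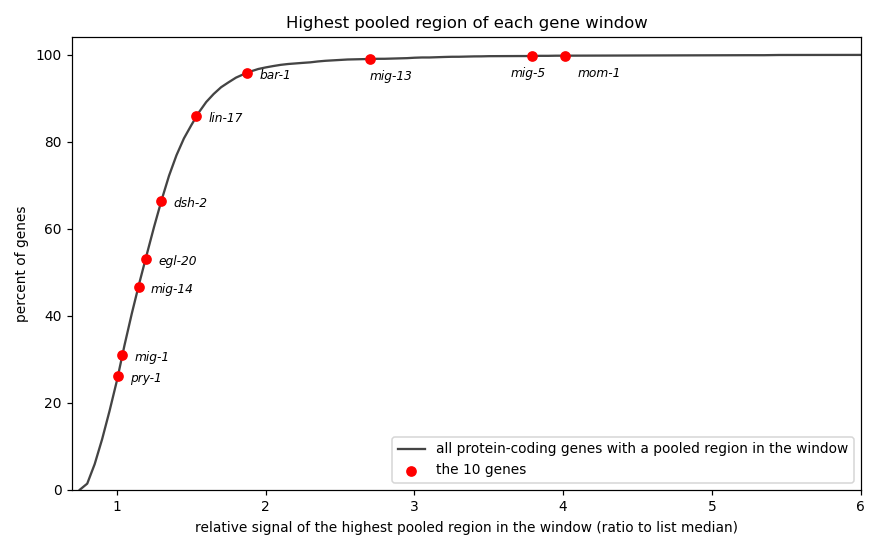
Percent of protein-coding genes (y) at or below a given relative signal of the highest pooled region in the window (x, ratio to the list median), with the 10 genes as red points. *mom-1* lies at percentile 99.8, *mig-5* at 99.7, *mig-13* at 99.0 and *pry-1* at 26.2.

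The peaks most like those of the 3 genes were found by the distance between log2 relative signals over the 2 replicates, among 141 other thresholded peaks that lay in the window of a protein-coding gene and had a region in each replicate. For *mom-1* they were the peaks at *F20B6.9*, *T28F12.1* and the insulin-like gene *ins-39*, at log2 distances from 0.27 to 0.32. For *mig-5* they were those at *serp-1.1*, *daf-5*, a Ski-family gene of the dauer pathway, and *ekl-4*, at 0.16 to 0.25. For *mig-13* they were those at *F48C1.3*, *sor-1* and the lipin gene *lpin-1*, at 0.05 to 0.12. Each of these peaks is named by the gene of nearest 5' end among those whose window holds it.

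Among 45 other genes of Wnt signalling and Q neuroblast migration, 3 had a thresholded peak in the window, or 6.67%, and 13 had a region among the 1000 highest, or 28.9%, beside the 1.39% and 7.22% of all protein-coding genes. Their windows were longer, with a median of 10828 bp against 7027 bp. Nothing is read from either share, since the list of 45 was chosen with earlier results of these data known. The Frizzled gene *mom-5* had the highest, at rank 16, 2683 bp upstream, with 4.19 ± 0.0917 (SD, n = 2). That summit was nearer to the 5' end of *algn-10*, at 914 bp. *unc-62*, which encodes the MEIS-class partner of Hox proteins, had a peak at rank 18 with 4.17 ± 1.82 (SD, n = 2). Its summit lay 10762 bp inside the gene, in an annotated 5' UTR of *unc-62*. The nearest 5' end of a whole gene was that of *T28F12.1*, 4810 bp away. The *unc-62* peak is one of the 3 peaks listed as most like that of *mom-1*. *mig-15*, a kinase gene, had a peak at rank 156, 2193 bp upstream, with 2.20 ± 0.236 (SD, n = 2), and was itself the nearest gene.

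The remaining genes with a high region were below the threshold. *egl-27*, *gsk-3* of the destruction complex, the Wnt gene *cwn-2*, *unc-73*, *mig-10*, *vang-1*, *dsh-1*, *ceh-20* and *dpy-19* had their highest region at ranks 219 to 750. *unc-73* ranked 223 in replicate 1 and 10239 in replicate 2, *mig-10* 315 and 7459, and *dpy-19* 1637 and 7656. *egl-27* went the other way, at 1519 and 128, as did *cwn-2*, at 2753 and 607. The *unc-73* region was nearer to *F55C7.2*, at 1321 bp, and that of *dpy-19* to *F22B7.1*, at 1563 bp. *ceh-20*, which encodes the Pbx-class partner of Hox proteins, had 1.77 ± 0.130 (SD, n = 2), 930 bp upstream of its 5' end. *gsk-3* had 1.81 ± 0.0469 (SD, n = 2), with a summit 54 bp from the 5' end of *Y18D10A.4*. *vang-1*, a planar polarity gene, had 1.61 ± 0.255 (SD, n = 2), 460 bp upstream. The third Dishevelled gene, *dsh-1*, had its highest region in an intron, at rank 3080 in replicate 1 and 2205 in replicate 2. Of the 18 Q migration genes, 8 had a region among the 1000 highest, in windows that reached 37440 bp for *unc-73* and 41709 bp for *ptp-3*, the second of which had none. That count comes from the same list, and nothing is read from it. Groups of 1 to 4 genes, which all other roles were, are too small to be set against 7.22%. The windows of *cfz-2* and *lin-39* held 0 pooled regions. Both were named because of this value. They differed in the replicate lists, where the highest region of *cfz-2* ranked 14019 in replicate 1 and 26896 in replicate 2. The window of *lin-39*, the gene of the precipitated protein, held no region in either replicate list. Why it held none was not tested.

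**Figure D4:**
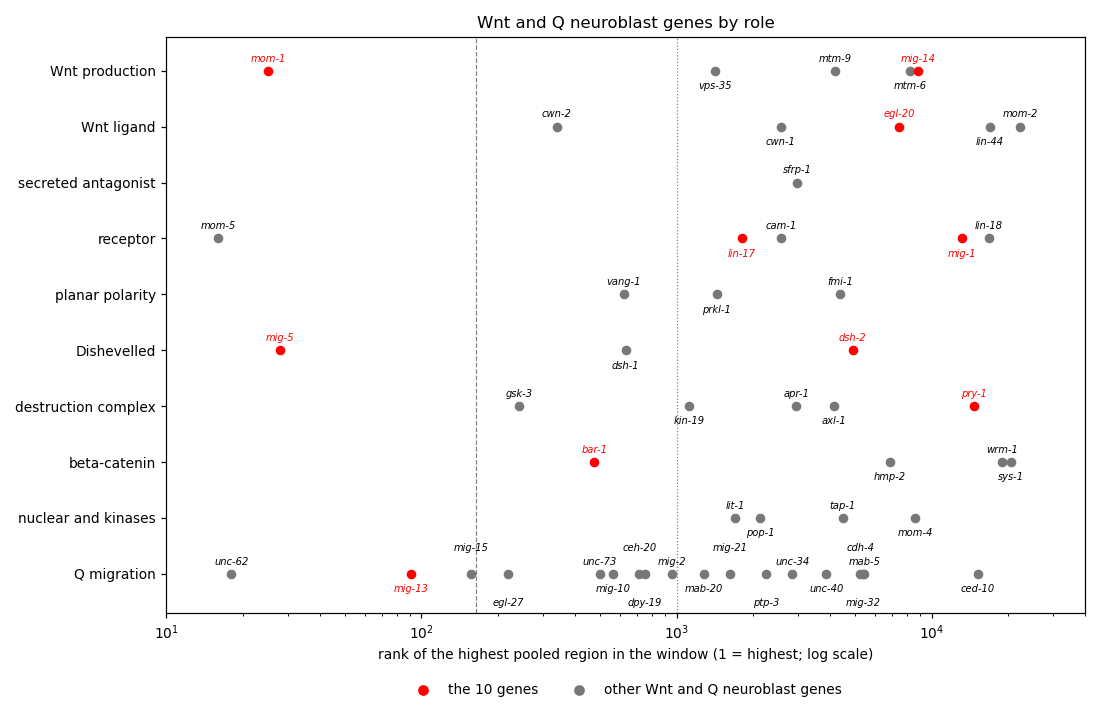
Rank of the highest pooled region in the window (x, log scale, 1 is the highest) for the 10 genes (red) and 43 of the 45 other Wnt and Q neuroblast genes (grey), by role (y). The dashed line marks the last thresholded rank, 163, and the dotted line rank 1000, and *mom-1*, *mig-5* and *mig-13* lie left of the dashed line while *mig-14* and *dsh-2*, which share a role with *mom-1* and *mig-5*, lie right of both lines.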

How the data were processed

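LIN-39 ChIP-seq of L4 larvae in 2 biological replicates was analysed from 4 ce11 peak lists. Per descriptions the authors deposited beside the lists, a replicate's list came from its own alignment and a control alignment common to both, the pooled list from both replicates, and the thresholded list from a filter on the irreproducible discovery rate. Neither aligner nor caller is given in the sources used here. For each region, the deposited signal is the authors' own value, used only for ranks and ratios within a list. The deposited q column was treated as a score and is not printed. The lists on ce10 were not used. The depth is unknown, and 30000 regions a list include background.

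Genes and coordinates (1-based) come from Ensembl release 115 on WBcel235, the same assembly as ce11, where all 10 genes and all 45 others were matched by symbol. Sequence patterns were searched within 100 bp of the summit. Since there is 1 group, no test was made and no p-value is given. The values are descriptions, with the SD over 2 replicates. The assignment functions were tested on simulated data.

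The genes, the list of 45 genes and the rule for named genes were chosen with earlier results of these data known. Named are the 10 genes, the up to 12 highest other pathway genes with a thresholded peak or a region among the 1000 highest, the nearest gene of described regions, and the 3 genes most like each peak. Python 3.11.15, numpy 2.4.6, pandas 2.3.3 and matplotlib 3.10.9 were used.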

Additional observations from a re-analysis of the deposited data

How the results depend on the processing

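Alternatives changed the window, the distance rule, the number of top regions, the scale and the replicates used. With the window starting 2000 bp upstream, pooled regions of the 10 genes numbered 22 instead of 34, genes with a region among the 1000 highest 2 instead of 4, and other pathway genes with a thresholded peak 1 instead of 3. In the upstream part alone, with 200 bp of the gene, there were 19 pooled regions, and 4 genes instead of 7 had a region matched between replicates. Counting only summits nearest to the gene's own 5' end left 1 pathway gene, and the 1000 highest pooled regions in place of the thresholded peaks gave 13. The number of the 10 genes with a thresholded peak was 3 and became 2 with either shorter window, since the *mig-13* peak lies 2389 bp upstream and the *mom-1* peak inside the gene, and 4 with the 1000 highest regions. As a ratio to the list mean, the *mig-13* value was 2.36 instead of 2.56. It was lower for the other peaks too, 3.72 instead of 4.03 for *mom-1* and 3.06 instead of 3.32 for *mig-5*. With the list of a single replicate in place of the pooled one, regions of the 10 genes ranged from 32 to 41, genes among the 1000 highest from 3 to 4, and relative signals from 3.31 to 4.75 for *mom-1*, 3.05 to 3.59 for *mig-5* and 2.47 to 2.66 for *mig-13*. For *bar-1* the value was 2.25 without replicate 2 and 0.807 without replicate 1. With summits within 100 bp, *mom-1* matched in replicate 2 only and *mig-13* in replicate 1 only, so neither had a mean. Where the construction of a setting does not show it, the cause was not tested. No paired analysis was possible because all samples belong to 1 group. The depth of the replicates is unknown, so its limit on these values could not be stated.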
